A study of Mus musculus with 12 samples.

Results

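The cadherins and protocadherins of the array were taken as every gene whose single platform symbol starts with Pcdh or Cdhr, or is Cdh followed by a number, with the endothelial cadherin Cdh5 left out. The rule used symbols only and no measured value, and it found 48 of the 12394 genes tested. By family these were 5 type I classical cadherins, 7 type II classical cadherins, 7 atypical cadherins, 2 delta-1 protocadherins, 3 delta-2 protocadherins, 22 clustered beta protocadherins and 2 other protocadherins, Pcdh12 and Pcdh20. Where a gene had several probe sets, the one with the highest mean was used. No gamma protocadherin was among the 48, and the 6 probe sets that each list 9 to 14 alpha protocadherin symbols were kept apart because they name no single gene.

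Cadherins are calcium-dependent adhesion proteins that join neighbouring cells, and classical cadherins connect the synaptic membrane to actin through catenins. Delta protocadherins bind weakly, signal through their cytoplasmic tails and take part in activity-dependent remodelling of synapses. The clustered protocadherins are encoded one after another in a gene cluster, and each neuron uses its own selection of them, which gives it a surface identity in self-avoidance and wiring.

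The tissue was the CA1 subfield of mouse hippocampus, whose pyramidal neurons are known for their sensitivity to ischemia, measured on 12 Affymetrix arrays in 4 groups of 3. The groups were SUMO-KD mice after transient forebrain ischemia, SUMO-KD mice after sham surgery, wild-type mice after ischemia and wild-type mice after sham surgery. SUMO-KD mice are labelled transgenic and carry a knockdown of SUMO, a small protein that is attached to other proteins and alters their function. Ischemia lasted 10 min, tissue was taken at 3 h of reperfusion, and each array held RNA pooled from 2 brains. The labels used here name neither the promoter of the transgene nor strain, sex, age or surgery day. The replicates are called biological, and p-values measure the spread between these pooled samples.

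Sumo3, which encodes a form of SUMO, averaged 1908 ± 28.3 in SUMO-KD ischemia and 3400 ± 140 in wild-type ischemia arrays, and 1560 ± 194 in SUMO-KD sham and 2343 ± 113 in wild-type sham arrays (intensity, SD, n = 3 each). Values are linear probe-set intensities, and array medians lay between 141 and 162. The control probe set at the 3′ end of 18S ribosomal RNA read 2829 to 4127 in 5 ischemia arrays, 6316 in the second SUMO-KD ischemia array, and 5087 to 7569 in the 6 sham arrays. At the 5′ end it read 1275 to 1660, 4127, and 4194 to 6528 in the same arrays. The second SUMO-KD ischemia array stood with or near the sham arrays on these controls, whose part in the results was not tested, so counts are also given without it. Summed intensity of 4 measured CA1 pyramidal markers was 3840 to 5491 in SUMO-KD ischemia, 3876 to 6493 in SUMO-KD sham, 4182 to 6181 in wild-type ischemia and 8119 to 10884 in wild-type sham arrays. For 7 measured dentate granule cell markers the sums were 5880 to 6874, 8198 to 10357, 4384 to 4883 and 5931 to 7755 in the same group order. No marker of these lists was at 0, and their part in the results below was not tested. In such tissue, fewer cells of a type and less RNA per cell cannot be told apart.

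Of the 48 genes, 31 had a mean log2 intensity of at least 5 and 17 lay below it. The dim genes were 10 of the 22 beta protocadherins and 7 others, among them the intestinal and kidney cadherins Cdh16, Cdh17 and Cdhr5. No gene below that level passed a test. Differences are given on the log2 scale of intensity plus 32, which understates the change of dim genes. Calls required an adjusted p under 0.05 in limma's moderated test, where Benjamini-Hochberg adjustment ran over all 12394 genes, and adjusted p-values below come from that fit unless a second probe set or an alternative fit is named. Those of second probe sets were adjusted over all probe sets, and those of alternatives within each refit.

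Ischemia changed a minority of the family, with a few delta protocadherins up and beta protocadherins, Pcdh20 and Cdh8 down. In SUMO-KD CA1, 3 of 48 genes rose (6.25%, against 6.08% of all genes) and 12 fell (25.0%, against 4.62% of all genes). In wild-type CA1, 4 rose (8.33%, against 9.59% of all genes) and 6 fell (12.5%, against 8.88% of all genes). The share that rose lay near that of all genes in both genotypes. The median change of the 48 genes was -0.18 in SUMO-KD and -0.20 in wild-type mice, and that of all genes was -0.02 in SUMO-KD and -0.04 in wild-type mice. Without the second SUMO-KD ischemia array, 2 genes rose and 10 fell in SUMO-KD mice, and 4 rose and 10 fell in wild-type mice.

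Pcdh1, Pcdh7 and Pcdh8 made up the rises shared by both genotypes, which were 100% of the SUMO-KD rises and 75.0% of the wild-type rises. The 6 genes that fell in wild-type mice, Cdh8, Pcdh10, Pcdh20, Pcdhb3, Pcdhb7 and Pcdhb20, all fell in SUMO-KD mice as well, where they were 50.0% of the falls. The pair of ischemia comparisons shares no array.

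**Figure D1:**
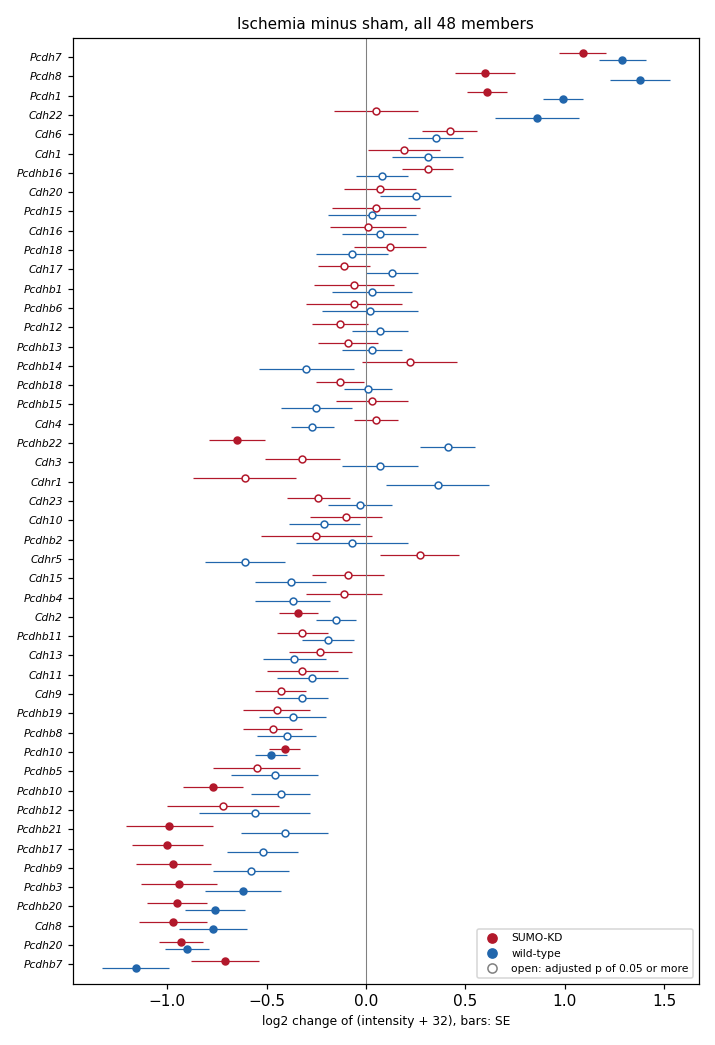
Log2 change of intensity plus 32, ischemia minus sham, for the 48 genes in SUMO-KD and wild-type mice. Points are estimates from 3 arrays a group, bars are SE, and filled points have an adjusted p under 0.05. Pcdh8, Pcdh7 and Pcdh1 stand at the high end and beta protocadherins, Pcdh20 and Cdh8 at the low end.

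Pcdh8, also called arcadlin, is a delta-2 protocadherin induced by neuronal activity that in rat neurons promotes internalization of N-cadherin from synapses. It read 3081, 3810 and 3234 in the SUMO-KD ischemia arrays, against 2499, 2419 and 1779 in the SUMO-KD sham arrays. In wild-type mice it read 6887, 4939 and 5894 after ischemia, against 2134, 2178 and 2397 after sham surgery. Every ischemia array was above every sham array, and each wild-type ischemia array was above each SUMO-KD ischemia array, while the sham groups overlapped. The change was 0.60 (SE 0.15, adjusted p = 0.0281) in SUMO-KD mice and 1.38 (SE 0.15, adjusted p = 0.000136) in wild-type mice, a fold of 1.52 and 2.60. The SUMO-KD call was lost without any of 3 arrays: SUMO-KD sham 3 (adjusted p = 0.0945), SUMO-KD ischemia 2 (adjusted p = 0.117) or SUMO-KD ischemia 3 (adjusted p = 0.0656). It was also lost in a fit of the compared groups alone (adjusted p = 0.0603).

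The delta-1 protocadherins Pcdh7 and Pcdh1 were both measured, and both rose in both genotypes. Pcdh7 read 87.5, 78.9 and 92.3 in SUMO-KD ischemia, against 19.5, 34.8 and 17.6 in SUMO-KD sham arrays. In wild-type mice it read 116, 144 and 140 after ischemia and 32.8, 40.4 and 33.0 after sham surgery. The ischemia and sham arrays did not overlap in either genotype, and the change was 1.09 (SE 0.12, adjusted p = 0.000204) in SUMO-KD and 1.29 (SE 0.12, adjusted p = 4.40e-05) in wild-type mice. A second Pcdh7 probe set stayed dim, with group means of 11.8 to 17.8, and gave no call.

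Pcdh1 had intensities of 84.0, 81.9 and 83.6 in SUMO-KD ischemia and 44.6, 50.1 and 36.5 in SUMO-KD sham arrays. Its wild-type intensities were 126, 113 and 101 after ischemia and 46.7, 33.1 and 43.6 after sham surgery. The groups were again apart, by 0.61 (SE 0.10, adjusted p = 0.00346) in SUMO-KD and 0.99 (SE 0.10, adjusted p = 9.49e-05) in wild-type mice.

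**Figure D2:**
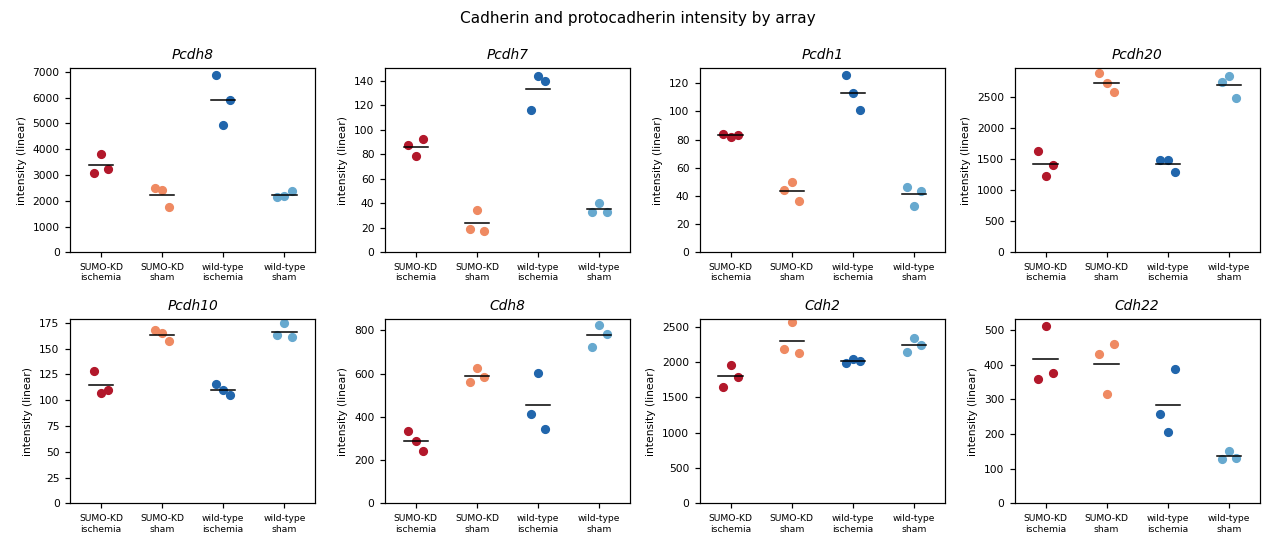
Linear probe-set intensity (vertical axes, each with its own range from 0) of 8 genes in the 12 arrays. Points are arrays, lines are means of 3, and SUMO-KD groups stand left of wild-type groups with ischemia left of sham. Pcdh8 is highest in wild-type ischemia arrays, at 4939 to 6887, and Pcdh20 is lower after ischemia in both genotypes.

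Pcdh20, a protocadherin outside the delta and clustered families, was among the falls with the smallest p. It read 1632, 1232 and 1407 in SUMO-KD ischemia, against 2878, 2723 and 2571 in SUMO-KD sham arrays. Wild-type arrays gave 1492, 1485 and 1299 after ischemia and 2736, 2842 and 2477 after sham surgery. All 6 ischemia arrays were below all 6 sham arrays, and the difference of SUMO-KD from wild-type mice was -0.01 after ischemia and 0.02 after sham surgery. The change was -0.93 (SE 0.11, adjusted p = 0.000324) in SUMO-KD and -0.90 (SE 0.11, adjusted p = 0.000289) in wild-type mice. A second Pcdh20 probe set fell by 1.21 (adjusted p = 0.000838) in SUMO-KD and 1.01 (adjusted p = 0.00162) in wild-type mice.

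Pcdh10, a delta-2 protocadherin that recruits the WAVE actin regulators, gave a split reading. On its brighter probe set it had 128, 107 and 110 in SUMO-KD ischemia and 168, 165 and 157 in SUMO-KD sham arrays, a fall of 0.41 (adjusted p = 0.00830). Its wild-type arrays read 116, 110 and 105 after ischemia and 163, 175 and 161 after sham surgery, a fall of 0.48 (adjusted p = 0.00221). The second probe set showed 0.19 in SUMO-KD and -0.02 in wild-type mice with no call, so the fall rests on a single probe set, of a design that can bind more than one transcript. The remaining delta-2 gene, Pcdh18, was not called on its brightest probe set, at 0.12 in SUMO-KD and -0.07 in wild-type mice. A dimmer Pcdh18 probe set rose in wild-type mice by 0.45 (SE 0.11, adjusted p = 0.0163), from a sham mean of 9.60 to 25.1. That probe set showed -0.05 in SUMO-KD mice with no call, and a still dimmer one gave no call in either genotype.

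Among the type II classical cadherins, which carry synapse-specific adhesion in the brain, Cdh8 fell in both genotypes. It read 334, 287 and 243 in SUMO-KD ischemia and 560, 627 and 585 in SUMO-KD sham arrays. Wild-type arrays gave 415, 605 and 344 after ischemia and 725, 823 and 783 after sham surgery. Ischemia arrays were below sham arrays within each genotype, by 0.97 (SE 0.17, adjusted p = 0.00392) in SUMO-KD and 0.77 (SE 0.17, adjusted p = 0.00903) in wild-type mice.

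Cdh22, a brain type II cadherin, read 359, 512 and 375 in SUMO-KD ischemia and 431, 314 and 459 in SUMO-KD sham arrays, and these overlapped (0.05, SE 0.21, adjusted p = 0.934). In wild-type mice it rose with ischemia without overlap, to 259, 205 and 387, against 128, 152 and 132 in wild-type sham arrays (0.86, SE 0.21, adjusted p = 0.0140). The difference between the genotypes' responses was -0.82 (SE 0.29, adjusted p = 0.762) and was not called. Cdh6 and Cdh9, which takes part in mossy fibre synapses in mice, passed only on the mean response of both genotypes, by 0.39 (adjusted p = 0.0155) and -0.38 (adjusted p = 0.00926). Cdh10 and Cdh11, both bright, were not called in any comparison, with ischemia changes of -0.10 and -0.32 in SUMO-KD and -0.21 and -0.27 in wild-type mice.

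Of the 5 type I classical cadherins, only Cdh2, the N-cadherin of neuronal synapses, was called, in SUMO-KD mice and on the mean response of both genotypes. It read 1645, 1963 and 1794 in SUMO-KD ischemia and 2192, 2562 and 2134 in SUMO-KD sham arrays, and the groups did not overlap (-0.34, SE 0.10, adjusted p = 0.0403). In wild-type mice it read 1984, 2042 and 2016 after ischemia and 2140, 2338 and 2248 after sham surgery (-0.15, SE 0.10, adjusted p = 0.315). The SUMO-KD call was lost under 13 of 22 alternatives, with adjusted p up to 0.250. On the mean response Cdh2 fell by 0.25 (adjusted p = 0.0182), a call kept under 20 of 21 alternatives and lost when its probe sets were averaged (adjusted p = 0.397). A second Cdh2 probe set showed -0.06 in SUMO-KD and 0.19 in wild-type mice. Cdh4, or R-cadherin, was not called, at 0.05 in SUMO-KD and -0.27 in wild-type mice.

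Promoter sequence is shown for 3 genes with calls, the induced Pcdh8, the reduced Pcdh20 and the genotype-dependent Cdhr1 described below, chosen after their values were seen because RefSeq places these windows outside every transcript of the gene. Of the 48 genes, 16 had an entry in the RefSeq promoter table (GRCm38.p6). Each window is the 250 bases before the annotated start, on the minus strand of chromosome 14: chr14:79771313-79771562 for Pcdh8, chr14:88471397-88471646 for Pcdh20 and chr14:37098348-37098597 for Cdhr1. They are printed 5′ to 3′ along the gene, with capitals at matches to TATAAA or CCAAT, read on both strands (ATTGG is CCAAT on the other strand).
Pcdh8: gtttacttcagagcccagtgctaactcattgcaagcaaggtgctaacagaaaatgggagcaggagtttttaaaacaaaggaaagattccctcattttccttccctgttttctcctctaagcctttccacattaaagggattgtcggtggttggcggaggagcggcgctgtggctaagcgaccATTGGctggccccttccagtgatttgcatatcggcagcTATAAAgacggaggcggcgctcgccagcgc
Pcdh20: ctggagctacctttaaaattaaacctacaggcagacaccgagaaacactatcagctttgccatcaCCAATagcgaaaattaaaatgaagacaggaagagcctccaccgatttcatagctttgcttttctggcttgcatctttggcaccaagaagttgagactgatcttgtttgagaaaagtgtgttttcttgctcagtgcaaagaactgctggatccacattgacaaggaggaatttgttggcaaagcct
Cdhr1: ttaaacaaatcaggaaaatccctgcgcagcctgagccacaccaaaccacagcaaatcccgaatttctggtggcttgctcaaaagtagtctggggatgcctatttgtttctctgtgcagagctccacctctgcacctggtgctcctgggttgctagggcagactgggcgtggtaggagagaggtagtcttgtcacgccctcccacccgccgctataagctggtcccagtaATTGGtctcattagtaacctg

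Pcdh8 carried TATAAA with its first base 30 bases before the start and a CCAAT match at 68 bases. Pcdh20 and Cdhr1 carried CCAAT matches at 185 and 21 bases. Over 32851 windows of the same length, 12.4% held TATAAA and 33.8% held CCAAT on either strand. The cyclic AMP response element TGACGTCA (1.55% of windows), its core TGACG (17.8%), the AP-1 site TGANTCA (6.75%) and the EGR site GCGNGGGCG (4.7%) had no match in these 3 windows, which says only that these letters are not there. TGACG lies within TGACGTCA.

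The beta protocadherins were the largest family, and ischemia called them in one direction only. None of the 22 rose in either genotype. In SUMO-KD mice 8 fell (36.4%, against 4.62% of all genes), with a median change of -0.46. In wild-type mice 3 fell (13.6%, against 8.88% of all genes, which is near the background), with a median change of -0.37. All of these lay among the 12 beta genes above the dim level. Of those 12, 8 fell in SUMO-KD mice, where 5.91% of all genes above that level fell. In wild-type mice 3 of the 12 fell, beside 11.2% of all genes above that level. On the mean response of both genotypes, 5 of the 48 genes rose (10.4%, against 12.8% of all genes) and 16 fell (33.3%, against 14.0% of all genes). Of those 16, 11 were beta genes, with Pcdhb5, Pcdhb8, Pcdhb12 and Pcdhb19 called only there, at -0.51 (adjusted p = 0.0310), -0.43 (adjusted p = 0.0127), -0.64 (adjusted p = 0.0303) and -0.41 (adjusted p = 0.0235). The calls of Pcdhb5, Pcdhb12 and Pcdhb19 were lost under 8, 7 and 4 of 21 alternatives, with adjusted p up to 0.0745. The beta genes are similar in sequence, and whether a probe set also binds transcripts of a neighbour was not tested.

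Pcdhb7 read 422, 353 and 546 in SUMO-KD ischemia and 582, 831 and 795 in SUMO-KD sham arrays. Wild-type arrays read 254, 292 and 249 after ischemia and 632, 721 and 548 after sham surgery. Ischemia arrays were below sham arrays in both genotypes, by 0.71 (SE 0.17, adjusted p = 0.0215) in SUMO-KD and 1.16 (SE 0.17, adjusted p = 0.000840) in wild-type mice. The SUMO-KD call was lost under 5 of 22 alternatives, among them the fit without the second SUMO-KD ischemia array (adjusted p = 0.0920).

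Pcdhb3 read 146, 81.8 and 90.8 in SUMO-KD ischemia and 267, 180 and 245 in SUMO-KD sham arrays, and 124, 150 and 149 in wild-type ischemia and 234, 284 and 192 in wild-type sham arrays. It was lower after ischemia without overlap in both genotypes, by 0.94 (SE 0.19, adjusted p = 0.00835) in SUMO-KD and 0.62 (SE 0.19, adjusted p = 0.0390) in wild-type mice. The wild-type call was lost under 7 of 22 alternatives, with adjusted p up to 0.123.

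Pcdhb9 and Pcdhb10 were called in SUMO-KD mice and on the mean response, and not in wild-type mice alone. Pcdhb9 read 738, 392 and 476 in SUMO-KD ischemia and 963, 1072 and 1093 in SUMO-KD sham arrays (-0.97, SE 0.19, adjusted p = 0.00765). In wild-type mice it read 412, 400 and 345 after ischemia and 658, 493 and 637 after sham surgery (-0.58, SE 0.19, adjusted p = 0.0531). Its wild-type groups did not overlap either, and the difference between the responses was -0.38 (SE 0.27, adjusted p = 0.899). Pcdhb10 fell by 0.77 (adjusted p = 0.00714) in SUMO-KD mice and showed -0.43 (adjusted p = 0.0684) in wild-type mice. On the mean response Pcdhb9 fell by 0.77 (adjusted p = 0.00134) and Pcdhb10 by 0.60 (adjusted p = 0.00149), under every alternative run.

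The genotype comparison set SUMO-KD against wild-type mice within each surgery. After ischemia 6 of the 48 genes were called (12.5%, against 1.56% of all genes), of which 5 were higher and 1, Pcdh8, was lower in SUMO-KD mice. After sham surgery 7 were called (14.6%, against 2.10% of all genes), all of them higher in SUMO-KD mice. The 5 that were higher after ischemia, Cdh13, Cdhr1, Pcdhb20, Pcdhb21 and Pcdhb22, were 71.4% of those higher after sham surgery. The other two of the sham comparison were Cdh22 and Pcdhb17. The median difference of the 48 genes was -0.02 after ischemia and 0.02 after sham surgery, against -0.00 and -0.01 over all genes. Without the second SUMO-KD ischemia array, 5 genes were called after ischemia and 8 after sham surgery. The count after ischemia was 2 without SUMO-KD ischemia 3 or with the compared groups alone, and 3 without SUMO-KD ischemia 1 or wild-type ischemia 1.

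**Figure D3:**
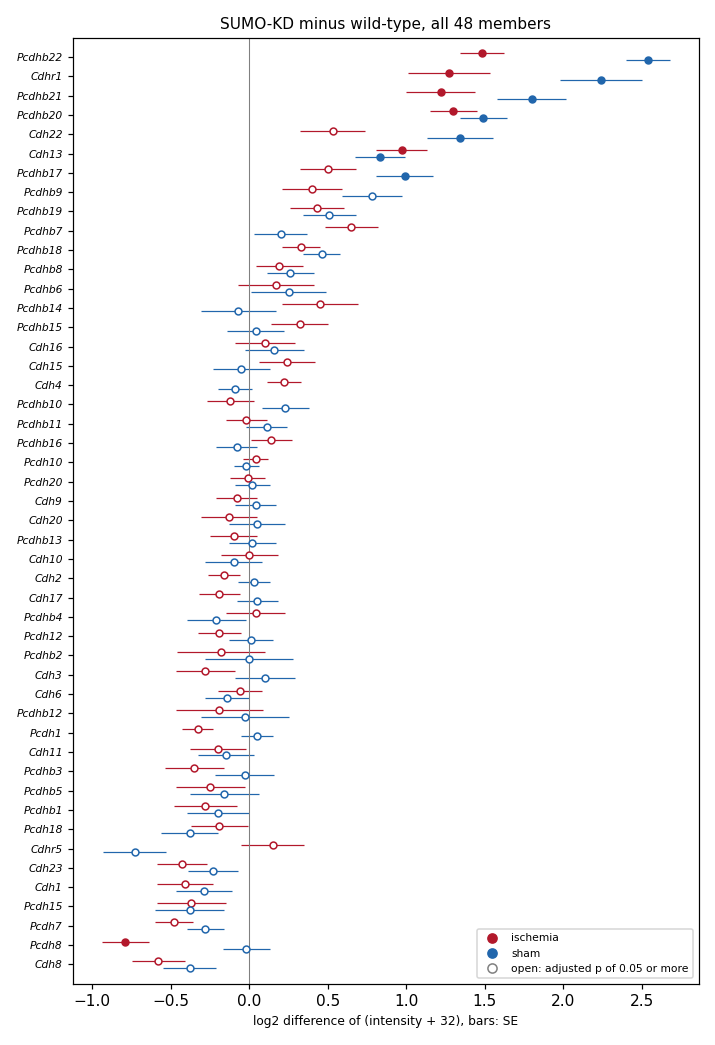
Log2 difference of intensity plus 32, SUMO-KD minus wild-type, for the 48 genes after ischemia and after sham surgery. Points are estimates from 3 arrays a group, bars are SE, and filled points have an adjusted p under 0.05. Pcdhb22 is highest in both surgery groups, and Pcdh8 after ischemia is the one filled point on the low side.

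Pcdhb22 had the largest genotype difference of the 48 genes in each surgery group. It read 263, 258 and 269 in SUMO-KD ischemia and 80.5, 78.5 and 63.3 in wild-type ischemia arrays, a difference of 1.48 (SE 0.14, adjusted p = 0.000393). After sham surgery it read 475, 335 and 502 in SUMO-KD and 57.9, 41.5 and 44.1 in wild-type mice, a difference of 2.54 (SE 0.14, adjusted p = 3.05e-06) and a fold of 5.83. All 6 SUMO-KD arrays were above all 6 wild-type arrays. Within genotypes, ischemia arrays were below sham arrays in SUMO-KD mice (-0.65, SE 0.14, adjusted p = 0.0122) and above them in wild-type mice (0.41, SE 0.14, adjusted p = 0.0615). The SUMO-KD fall was lost without SUMO-KD sham 1 (adjusted p = 0.0522) or 3 (adjusted p = 0.0507).

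Pcdhb20 read 481, 331 and 420 in SUMO-KD ischemia and 135, 183 and 125 in wild-type ischemia arrays. Its sham arrays read 811, 783 and 858 in SUMO-KD and 279, 228 and 306 in wild-type mice. Every SUMO-KD array was above every wild-type array, by 1.30 (SE 0.15, adjusted p = 0.00151) after ischemia and 1.49 (SE 0.15, adjusted p = 0.000516) after sham surgery. With ischemia it fell by 0.95 (adjusted p = 0.00229) in SUMO-KD and 0.76 (adjusted p = 0.00550) in wild-type mice, so both contrasts were called in this gene. Pcdhb20 and Pcdhb22 kept their calls in both genotype comparisons under every alternative run.

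Pcdhb21 read 164, 188 and 227 in SUMO-KD ischemia and 32.4, 99.1 and 72.1 in wild-type ischemia arrays (1.22, SE 0.22, adjusted p = 0.0196). After sham surgery it read 497, 345 and 407 in SUMO-KD and 94.2, 97.1 and 95.6 in wild-type mice (1.80, SE 0.22, adjusted p = 0.00129). The groups did not overlap, and the call after ischemia was lost without SUMO-KD ischemia array 2 (adjusted p = 0.0514) or 3 (adjusted p = 0.0964). That call was also lost with the compared groups alone (adjusted p = 0.117). With ischemia Pcdhb21 fell by 0.99 (adjusted p = 0.0145) in SUMO-KD mice and showed -0.41 (adjusted p = 0.229) in wild-type mice. The SUMO-KD fall was lost without SUMO-KD sham 1 (adjusted p = 0.0626) or SUMO-KD ischemia 2 (adjusted p = 0.0512).

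Pcdhb17 read 457, 259 and 388 in SUMO-KD ischemia and 235, 303 and 203 in wild-type ischemia arrays, which overlapped (0.50, SE 0.18, adjusted p = 0.209). Sham arrays gave 813, 770 and 678 in SUMO-KD and 383, 372 and 334 in wild-type mice, which did not (0.99, SE 0.18, adjusted p = 0.0160). That sham call was lost when any of 5 sham arrays was left out, wild-type 1, 2 or 3 or SUMO-KD 1 or 2, with adjusted p of 0.0525 to 0.0748. With ischemia it fell in SUMO-KD mice, to 0.499 of the sham level on the scale of intensity plus 32 (adjusted p = 0.00468), and the wild-type ratio was 0.700 (adjusted p = 0.0702).

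**Figure D4:**
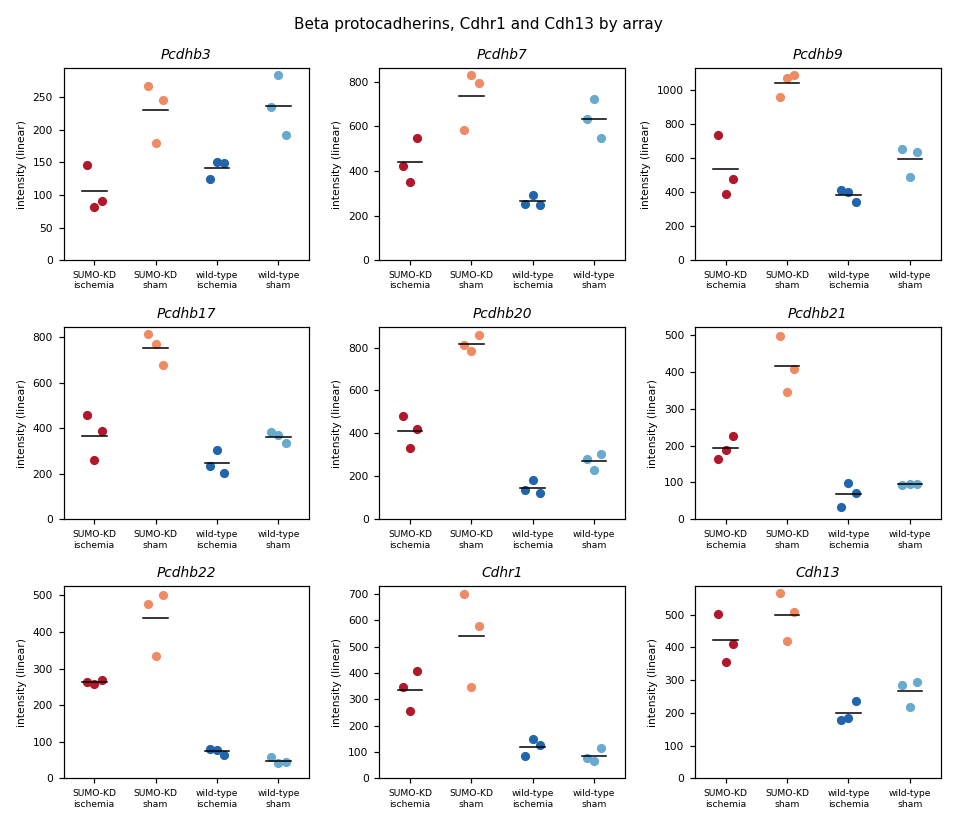
Linear probe-set intensity (vertical axes, each with its own range from 0) of 7 beta protocadherins, Cdhr1 and Cdh13 in the 12 arrays. Points are arrays, lines are means of 3, and SUMO-KD groups stand left of wild-type groups with ischemia left of sham. Pcdhb20 and Pcdhb22 are higher in all 6 SUMO-KD arrays than in all 6 wild-type arrays.

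Along the cluster, the genotype differences lay at one end. In the order of their numbers, the last 6 beta genes, Pcdhb17 to Pcdhb22, held all 3 beta calls after ischemia and all 4 after sham surgery, with median differences of 0.86 after ischemia and 1.24 after sham surgery. In the first 16 genes, Pcdhb1 to Pcdhb16, no gene was called for genotype and the median difference was 0.01 in both surgery groups, though Pcdhb7 showed 0.65 (SE 0.17, adjusted p = 0.0931) after ischemia and Pcdhb9 showed 0.78 (SE 0.19, adjusted p = 0.0618) after sham surgery. Of the last 6 genes, 5 were above the dim level, and of the first 16, 7 were. The median difference of those 5 was 1.22 after ischemia and 1.49 after sham surgery. That of those 7 was -0.12 after ischemia and 0.20 after sham surgery. The division at Pcdhb17 was drawn after the values were seen and was given no test. The ischemia falls occurred at both ends: in SUMO-KD mice 4 of the last 6 and 4 of the first 16 fell, and in wild-type mice 1 and 2.

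**Figure D5:**
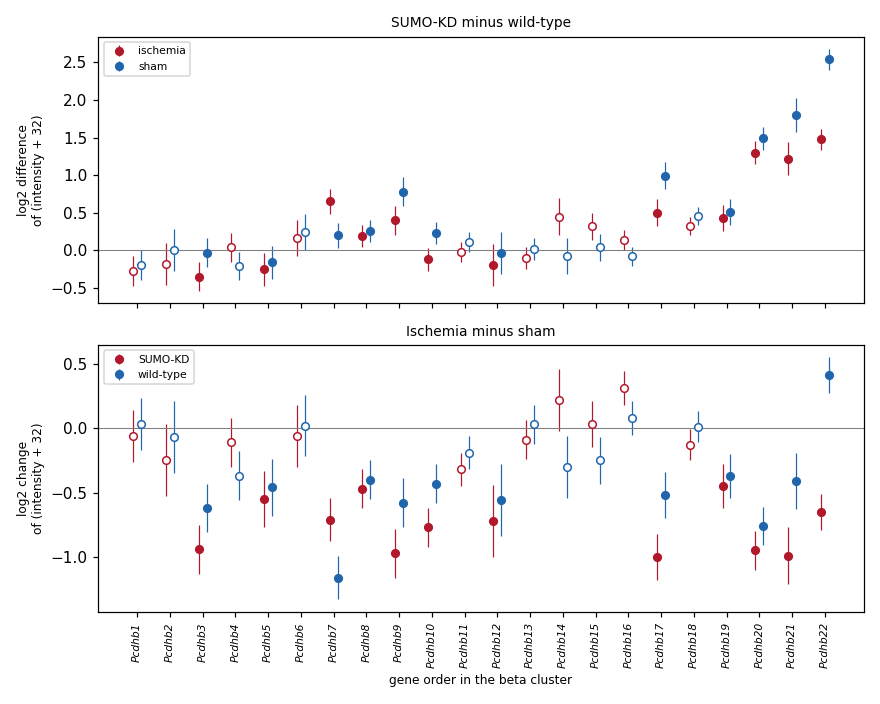
The 22 beta protocadherins in the order of their numbers along the cluster (horizontal axis). The upper panel gives the log2 difference SUMO-KD minus wild-type after ischemia and sham surgery, the lower panel the log2 change ischemia minus sham in SUMO-KD and wild-type mice, all of intensity plus 32. Bars are SE, and filled points are genes with a mean log2 intensity of at least 5, open points genes below it. The genotype difference is highest at Pcdhb20, Pcdhb21 and Pcdhb22.

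The genes that follow the beta cluster in RefSeq gene order (GRCm38.p6) were read in the same fit. Slc25a2, which encodes a mitochondrial ornithine carrier and comes next after Pcdhb22, was dim. It averaged 32.9 ± 8.34 in SUMO-KD ischemia and 25.4 ± 2.95 in wild-type ischemia arrays, a difference of 0.17 (adjusted p = 0.466). After sham surgery it averaged 37.1 ± 4.02 in SUMO-KD and 16.5 ± 2.59 in wild-type mice (SD, n = 3), a difference of 0.51 (SE 0.10, adjusted p = 0.0271). Taf7, a subunit of the general transcription factor TFIID that lies beyond it, showed a difference of 0.21 (adjusted p = 0.511) after ischemia and 0.56 (adjusted p = 0.0684) after sham surgery. The further neighbours Diaph1 and Hdac3 differed by -0.03 and 0.16 after ischemia and by 0.05 and 0.20 after sham surgery, with no call.

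Cdhr1, known as the photoreceptor cadherin from the retina, was the atypical cadherin with the largest genotype difference. It read 345, 257 and 407 in SUMO-KD ischemia and 84.3, 150 and 128 in wild-type ischemia arrays. The sham arrays read 698, 347 and 578 in SUMO-KD and 76.3, 67.5 and 115 in wild-type mice. All SUMO-KD arrays were above all wild-type arrays, by 1.27 (SE 0.26, adjusted p = 0.0338) after ischemia and 2.24 (SE 0.26, adjusted p = 0.000930) after sham surgery. The call after ischemia was lost without wild-type sham 1, wild-type ischemia 1 or 3, SUMO-KD sham 3 or SUMO-KD ischemia 1 or 3, with adjusted p of 0.0503 to 0.145. It was also lost with the compared groups alone (adjusted p = 0.0759). The call after sham surgery held under every alternative run.

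Cdh13, the lipid-anchored T-cadherin that lacks a cytoplasmic tail, read 502, 354 and 409 in SUMO-KD ischemia and 177, 184 and 236 in wild-type ischemia arrays. After sham surgery it read 567, 418 and 509 in SUMO-KD and 284, 218 and 294 in wild-type mice. Every SUMO-KD array was above every wild-type array, by 0.97 (SE 0.16, adjusted p = 0.0125) after ischemia and 0.83 (SE 0.16, adjusted p = 0.0221) after sham surgery. Leaving out single arrays ended the call after ischemia in 3 cases (wild-type ischemia 1, SUMO-KD ischemia 1 or 3, adjusted p of 0.0515 to 0.0585) and the call after sham surgery in 4 (wild-type sham 1 or 2, SUMO-KD sham 1 or 3, adjusted p of 0.0621 to 0.0954). Both calls were lost with the compared groups alone, at adjusted p = 0.0737 after ischemia and 0.0594 after sham surgery. The sham call of Cdh13 was also lost when its probe sets were averaged (adjusted p = 0.0512). Its other probe sets were dim and gave no call. The ischemia difference of Cdh13 was -0.23 in SUMO-KD and -0.36 in wild-type mice, with no call.

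Cdh22, given above for ischemia, was higher in SUMO-KD sham than in wild-type sham arrays by 1.34 (SE 0.21, adjusted p = 0.00629). After ischemia the SUMO-KD and wild-type arrays overlapped (0.53, SE 0.21, adjusted p = 0.250). Pcdh8 was the gene that fell in SUMO-KD relative to wild-type mice after ischemia, by 0.79 (SE 0.15, adjusted p = 0.0263), and its sham difference was -0.02 (SE 0.15, adjusted p = 0.978). That call was lost without wild-type ischemia 1 or 3 or SUMO-KD ischemia 1 or 3, with adjusted p of 0.0745 to 0.113. It was also lost with the compared groups alone (adjusted p = 0.0883). Cdh8 was lower in SUMO-KD arrays without overlap in both surgery groups, at -0.58 (adjusted p = 0.131) after ischemia and -0.38 (adjusted p = 0.341) after sham surgery, and was not called.

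Markers of the subfields and of glia also moved with genotype or ischemia. After ischemia 1 of the 7 dentate markers was called, Calb1, which was higher in SUMO-KD mice by 0.86 (adjusted p = 0.00148). The dentate list's median was 0.10 there, with Prox1 at -0.48 and Stxbp6 at -0.52 and not called, and no CA1 marker was called. Wfs1 and Man1a of the CA1 list were lower in SUMO-KD than in wild-type sham arrays, with differences of -0.87 (adjusted p = 0.0144) and -0.85 (adjusted p = 0.0332), and Calb1 was higher, by 0.61 (adjusted p = 0.00863), with a dentate median of 0.35. The astrocyte markers Aqp4 and Gfap were higher there too, by 0.52 (adjusted p = 0.0253) and 0.59 (adjusted p = 0.0449), 2 of 7 measured. In wild-type mice the CA1 markers Wfs1 and Pou3f1 also fell with ischemia, by 0.60 (adjusted p = 0.0206) and 0.80 (adjusted p = 0.0468). In the same comparison the dentate markers Calb1 and Lct fell, by 0.61 and 1.49, and Prox1 rose by 1.03 (adjusted p = 0.00473). The interneuron markers Pvalb, Sst and Vip fell too, 3 of 8 measured. Calb1 and Lct also fell in SUMO-KD mice, where no CA1 or interneuron marker was called. The microglial markers P2ry12 and Tmem119 and the precursor marker Pdgfra fell with ischemia in both genotypes, by 1.02, 0.95 and 1.24 in SUMO-KD and 1.35, 0.90 and 1.06 in wild-type mice. In each genotype 3 of the 7 microglial markers fell, and Aif1, Itgam and C1qa were called in neither. The part of these markers in the family's changes was not tested.

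The interaction asks whether ischemia changed a gene differently in SUMO-KD than in wild-type mice. None of the 48 genes was called by limma, where 0.0161% of all genes were called. Of the 48, 6 had an unadjusted p under 0.05, and of all 12394 genes 768 had, a smaller share. The smallest p belonged to Pcdhb22 (-1.06, SE 0.20, adjusted p = 0.204), Pcdh8 (-0.78, SE 0.22, adjusted p = 0.567) and Cdhr5 (0.88, SE 0.29, adjusted p = 0.718). The 95% intervals were -1.49 to -0.63 for Pcdhb22 and -1.25 to -0.31 for Pcdh8. Cdhr5, a cadherin of the intestinal brush border, was dim in all arrays, at 3.55 to 56.1. So the longer list of falls in SUMO-KD mice, 12 against 6 in wild-type mice, is not shown to be a difference between the genotypes for any single gene.

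Genes that work with cadherins were read from lists by role. Of 12 measured catenins and other membrane partners, 2 rose and 0 fell in SUMO-KD mice, where 6.08% of all genes rose and 4.62% fell. In wild-type mice 2 rose and 1 fell, where 9.59% of all genes rose and 8.88% fell. Vcl, or vinculin, which links junctions to actin, read 1201, 1130 and 1230 in SUMO-KD ischemia and 568, 716 and 740 in SUMO-KD sham arrays. Wild-type arrays read 1570, 1375 and 1365 after ischemia and 786, 836 and 684 after sham surgery. It rose without overlap in both, by 0.80 (adjusted p = 0.00122) in SUMO-KD and 0.88 (adjusted p = 0.000440) in wild-type mice. Ctnnd1, the p120 catenin that stabilizes cadherins at the membrane, showed 0.39 (adjusted p = 0.172) in SUMO-KD mice and rose by 0.74 (adjusted p = 0.00939) in wild-type mice. Ctnnal1 was the other rise in SUMO-KD mice, by 0.76 (adjusted p = 0.0380). The fall in wild-type mice was Ctnnd2, by 0.26 (adjusted p = 0.0486).

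Of 14 measured proteases that cleave cadherins, 0 rose with ischemia in either genotype alone. In SUMO-KD mice 1 fell and in wild-type mice 3, where 4.62% and 8.88% of all genes fell. On the mean response 1 rose, Pcsk5 by 0.49 (adjusted p = 0.0373), and 2 fell, where 12.8% of all genes rose and 14.0% fell. Adam10, the sheddase of N-cadherin, read 1259, 1091 and 1081 in SUMO-KD ischemia and 1634, 1793 and 1458 in SUMO-KD sham arrays, and 1352, 1213 and 1076 in wild-type ischemia and 1652, 1748 and 1576 in wild-type sham arrays. It fell by 0.50 (adjusted p = 0.0152) in SUMO-KD and 0.45 (adjusted p = 0.0169) in wild-type mice. Klk8, or neuropsin, was the protease called for genotype, lower in SUMO-KD than in wild-type sham arrays by a log2 difference of -1.02 (adjusted p = 0.00629). Of 10 measured regulators of the protocadherin cluster, 2 fell in SUMO-KD and 3 in wild-type mice and none rose. Of all genes, 4.62% fell in SUMO-KD and 8.88% in wild-type mice. On the mean response 5 of the 10 fell, Ctcf, Nipbl, Rad21, Smc1a and Stag2, where 14.0% of all genes fell. The cohesin subunit Stag2 read 1049, 1083 and 1109 in SUMO-KD ischemia and 1447, 1450 and 1442 in SUMO-KD sham arrays, and 1062, 1066 and 1164 in wild-type ischemia and 1482, 1483 and 1478 in wild-type sham arrays. Ischemia arrays of Stag2 lay below the sham arrays in both genotypes. The cohesin loader Nipbl fell by 0.47 in SUMO-KD and 0.56 in wild-type mice, and Ctcf, which binds the protocadherin promoters, fell by 0.30 in wild-type mice.

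None of the 10 cluster regulators was called between the genotypes in either surgery group, and 0 had an unadjusted p under 0.05. None of the 12 measured protocadherin signalling partners was called with ischemia in either genotype alone, with 0 at an unadjusted p under 0.05 in SUMO-KD and 2 in wild-type mice. Brk1, a subunit of the WAVE complex, fell on the mean response, by 0.23 (adjusted p = 0.0361). Dab1, the reelin adaptor, fell in SUMO-KD relative to wild-type sham arrays, by 0.61 (adjusted p = 0.0144). Of 12 other measured cadherin superfamily genes, Celsr2, a planar polarity cadherin of neurons, fell in both genotypes, by 0.40 in SUMO-KD and 0.57 in wild-type mice. That was 1 of 12 in each genotype, where 4.62% of all genes fell in SUMO-KD and 8.88% in wild-type mice. Of 11 nectins and other junction genes, 0 were called with ischemia in SUMO-KD mice, where 2 had an unadjusted p under 0.05. In wild-type mice Nectin2 rose by 0.42 and L1cam fell by 0.47.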

How the data were processed

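Total RNA from CA1 was amplified, biotin-labelled and hybridised to Affymetrix arrays, per the labels' protocols. The deposited values are linear probe-set intensities on one scale, and each of the 12 arrays has a mean of 500.2 after 2% is trimmed at each end. Partek 6.6 and RMA appear in the submitters' processing notes with no role stated, and how the deposited table was made is not given in those notes or the labels. Of 22690 probe sets, 20393 had 1 gene symbol in the platform annotation, 691 several and 1606 none, and 20364 matched a RefSeq entry. One probe set per gene (highest mean) gave 12394 genes.

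Intensity plus an offset of 32 was taken to log2 and fitted with limma 3.58.1 in R 4.3.3 as 4 group means over all 12 arrays, with no covariate. The test was two-sided, and p-values were adjusted by Benjamini-Hochberg over all genes in each of 6 comparisons. The number of arrays limits the precision. On data simulated for ischemia against sham in wild-type mice over 12394 genes, 92.5% of 93 genes changed by 1 on the log2 scale and 99.1% of 107 changed by 2 were called, and 4.48% of calls were false. Changes below 1, where many calls of the family lie, were not simulated, nor were the genotype comparisons and the interaction.

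The genes named are those called in any comparison, the 12 with the highest mean, and the 3 with the smallest p in each genotype comparison and the interaction. Pcdh12, Pcdh18, Cdh4, Cdh16, Cdh17 and the ends of the beta segments are named besides, chosen after their values were seen. The other genes named come from partner, marker and neighbour lists. The members and lists were chosen with earlier results of these data known. Same-numbered replicates did not deviate together: the correlations of their deviations ran from 0.0055 to 0.28 for number 1, from -0.17 to 0.11 for number 2 and from -0.12 to 0.24 for number 3. The alternatives were other offsets and normalizations, other probe-set rules, a filter on dim genes, a replicate block, fits of the compared groups alone, robust moderation and leaving out each array.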

Additional observations from a re-analysis of the deposited data

Results flagged for a closer look

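Pcdhb22 stood out because its ischemia arrays lay below the sham arrays in SUMO-KD mice and above them in wild-type mice, without overlap. The wild-type difference was not called (0.41, limma adjusted p = 0.0615). It read 263, 258 and 269 in SUMO-KD ischemia and 475, 335 and 502 in SUMO-KD sham arrays, and 80.5, 78.5 and 63.3 in wild-type ischemia and 57.9, 41.5 and 44.1 in wild-type sham arrays. The difference between the responses was -1.06 (SE 0.20, limma adjusted p = 0.204). Without the second SUMO-KD sham array it was -1.23 (adjusted p = 0.0394).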

How the results depend on the processing

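Of 59 calls of single genes, 39 were kept under every alternative and 20 were lost under at least 1, and the cause was not tested. The count of falls in wild-type mice, 6, was 10 with quantile normalization and 10 with each array centred on its median, beside 4 rises in all these settings. Over all genes, that centring gave 986 rises and 1426 falls in wild-type mice, against 1188 and 1101. Leaving out single arrays gave 9 to 13 falls and 2 to 4 rises in SUMO-KD mice, 5 to 10 falls and 4 to 5 rises in wild-type mice, and 13 to 17 falls and 4 to 5 rises on the mean response. The genotype calls ranged from 2 to 7 after ischemia, where the main count was 6, and from 5 to 8 after sham surgery. After ischemia they were 2 with the compared groups alone, where fewer arrays set the spread. They were 3 without SUMO-KD ischemia 1 or wild-type ischemia 1, and 2 without SUMO-KD ischemia 3. The interaction gave 0 to 1 calls, with Pcdhb22 as the 1 without SUMO-KD sham 2. Without probe sets that bind several transcripts, Pcdh10 reversed to 0.19 in SUMO-KD mice and 0.09 on the mean response, since another probe set then stands for it.

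The replicate numbers share only a number. With a replicate block the counts were 3 rises and 12 falls in SUMO-KD mice, 4 rises and 6 falls in wild-type mice, 6 genotype calls after ischemia and 7 after sham surgery. Calls lost were Pcdhb3 in wild-type mice (adjusted p = 0.0503) and, on the mean response, Cdh22 (adjusted p = 0.0503) and Pcdhb5 (adjusted p = 0.0506). With 3 arrays a group and 17 of 48 genes near background, small changes of dim genes could be missed.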

Other observations

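The 6 probe sets that list several alpha protocadherin genes had group means of 12.8 to 2986. Of their 36 tests by limma, 0 were called, 5 had an unadjusted p under 0.05, and the smallest adjusted p was 0.0726. Cdh5, the endothelial cadherin left out of the family here, rose with ischemia by 0.84 in SUMO-KD and 0.91 in wild-type mice, while of the other 7 measured endothelial markers Slco1a4 and Tek fell, by 1.14 and 0.96 in SUMO-KD and 1.51 and 0.79 in wild-type mice, and none rose.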
